A study of Glycine max with 20 samples.

Results

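Besides the β-conglycinin and glycinin genes, 7 further cupin genes of the soybean seed were followed through seed filling: GLYMA10G03390, GLYMA02G16440, GLYMA10G39170, GLYMA10G39161, GLYMA08G13440, GLYMA15G04710, and GLYMA16G00980. They were chosen by identifier as the genes of the study's list of 18 cupin genes that are neither β-conglycinin subunit genes (5 genes) nor glycinin genes (6 genes), and they are 7 of the 57274 genes in the expression tables. The study heads that list as differentially expressed genes, found between the lines in these same data. Counts of called members, or of the 11 other cupin genes, are therefore not independent of the line comparison. Beside the shares of all genes they are a description only. The study's list gives GLYMA10G03390, GLYMA02G16440, and GLYMA10G39170 as 7S genes and GLYMA08G13440 and GLYMA15G04710 as 11S genes, and it names no homolog for GLYMA10G39161 and GLYMA16G00980. By their identifiers they lie on chromosomes 2, 8, 10, 15, and 16. The tables hold identifiers without sequences or annotation, so membership of the cupin family was taken from the study and not checked here.

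Cupins are named after the barrel shape of their fold, and the storage globulins of seeds are their most abundant plant members. The 7S (vicilin-type) globulins, such as β-conglycinin, and the 11S (legumin-type) globulins, such as glycinin, are made in the cotyledons during seed filling, deposited in protein storage vacuoles, and broken down after germination to feed the seedling. The transcripts of such genes are known to build up in the expanding cotyledon and to decline as the seed dries. The cupin family also holds proteins that are not storage reserves, such as the germin-like proteins.

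The 2 soybean lines were compared by RNA-seq of developing seeds at 5 ages, counted in days after flowering (DAF): 18 and 25 DAF, then 35 DAF, and last 50 and 55 DAF. DN47 (DongNong 47) is the recurrent parent and has all storage protein subunits. The line cgy-2-NIL is near-isogenic to it and carries the cgy-2 allele on an introgressed donor segment of chromosome 20, and its seeds lack the α-subunit of β-conglycinin. None of the 7 identifiers lies on chromosome 20. Both lines thus share the DN47 background, no treatment is stated for either, and seeds of 1 age were pooled with cotyledon and seed coat together. Each line and stage has 2 biological replicates, which gives 10 groups and 20 libraries, and the sources used here do not say which of the sister lines of cgy-2-NIL was sequenced. In such pooled tissue, fewer cells of a type and less RNA per cell cannot be told apart.

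Total counts ran from 18492047 to 30555808 per library. Levels are given as RPKM, the reads of a gene scaled by its length and by the total of the library, so that genes of different length can be compared. Pairs of values are the libraries of replicates 1 and 2. The α-subunit gene GLYMA20G28660 had 0 to 8 counts per library in cgy-2-NIL from 25 DAF on and 39 to 3825 in DN47, which fits the labels. The 5 genes taken as cotyledon markers were the glycinin gene Gy1 (GLYMA03G32030), which the study names, and GLYMA13G42310, GLYMA13G42320, GLYMA15G03030, and GLYMA02G01590. The last 4 and the 2 genes taken as seed coat markers (GLYMA08G06630 and GLYMA09G02600) were assigned from general knowledge. The study annotates GLYMA09G02600 as a plant peroxidase, without a tissue, and lists it as altered between the lines at all 5 stages. For the others no annotation was at hand to check them against, so the tissue that these sums stand for is uncertain. The cotyledon list summed to 14.9 to 28.1 RPKM at 18 DAF in cgy-2-NIL and 20.3 to 23.4 in DN47, against 32533 to 45029 and 49336 to 53302 at 35 DAF. Single genes carried most of it. At 18 DAF this was GLYMA02G01590 (means of 20.8 RPKM in cgy-2-NIL and 21 in DN47). At 35 DAF it was Gy1 (means of 26383 and 35867). The seed coat list summed to 389.9 to 391 RPKM at 18 DAF in cgy-2-NIL and 343 to 346 in DN47, and to 7.82 to 24 and 10.9 to 11.8 at 35 DAF. Its 2 genes took different courses: GLYMA08G06630 held nearly all of the sum at 18 DAF (means of 387 and 339.6 RPKM), whereas GLYMA09G02600 in DN47 had its lowest mean there (5.28) and its highest at 55 DAF (35.6). In cgy-2-NIL at 35 DAF, GLYMA08G06630 was at 18.1 and 0.742 RPKM, against 0.139 and 0.281 in DN47 (edgeR adjusted p = 0.0275). Its part in the 35 DAF results was not tested.

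The members fell into classes that differed by orders of magnitude. At 35 DAF in DN47, GLYMA10G03390 was the highest at 6335 ± 303 RPKM (SD, n = 2), with rank 11 among 57274 genes in both libraries, followed by GLYMA02G16440 at 1923 ± 30.2 and GLYMA10G39170 at 735 ± 41.7. GLYMA15G04710 (43.8 ± 0.559) and GLYMA08G13440 (43.3 ± 0.689) came next, and their libraries overlapped, so the order of these 11S genes is not resolved at that stage. GLYMA16G00980 (2.75 ± 0.554) and GLYMA10G39161 (0.577 ± 0.00316), the genes without a named homolog, were the lowest. The same 3 genes named 7S held the top places in both lines at 35, 50, and 55 DAF, whereas at 18 DAF GLYMA15G04710 was the highest member in both lines and each of the other 6 was below 2 RPKM. At 55 DAF in cgy-2-NIL the top order had changed: GLYMA10G39170 stood at 1568 ± 365 RPKM, above GLYMA02G16440 (646 ± 127) and GLYMA10G03390 (602 ± 152), and the libraries of the latter pair overlapped. In DN47 at 55 DAF, GLYMA10G03390 was still first at 3318 ± 28.1 RPKM.

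**Figure D1:**
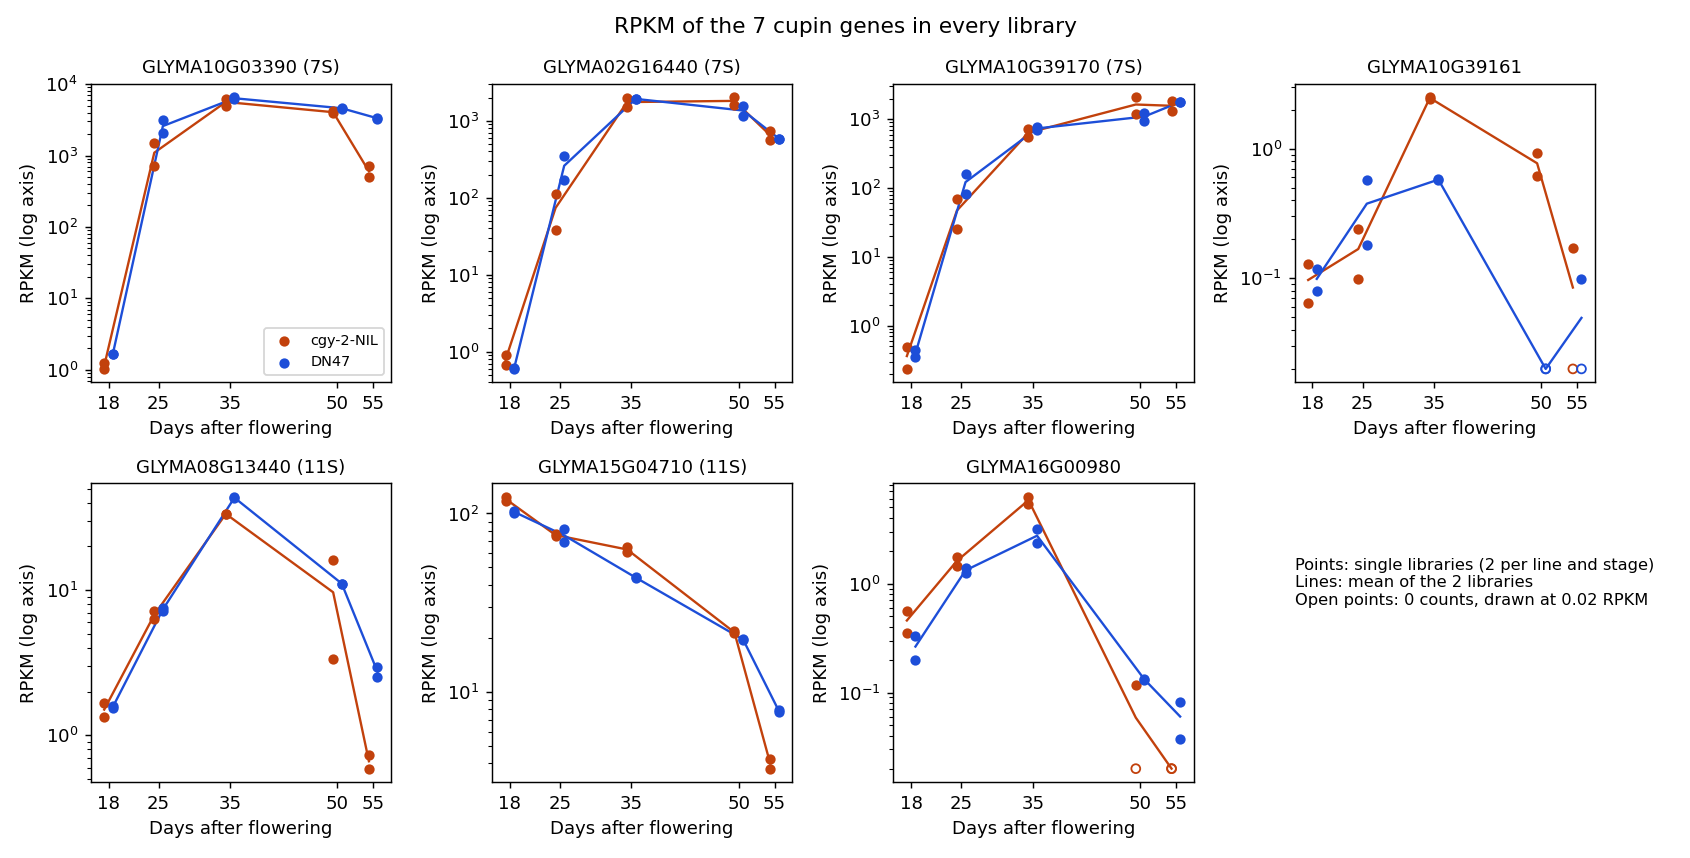
RPKM (log axis) against days after flowering for each of the 7 cupin genes, with 1 point per library, lines through the mean of the 2 libraries of cgy-2-NIL and DN47, and open points at 0.02 RPKM for libraries with 0 counts. The 3 genes named 7S rise from about 1 RPKM at 18 DAF by several orders of magnitude, GLYMA15G04710 is highest at 18 DAF, and GLYMA10G03390 at 55 DAF lies at 709.6 and 494 in cgy-2-NIL against 3338 and 3298 in DN47.

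Together the 7 genes held 0.0177% ± 0.000609 of all counts at 18 DAF in cgy-2-NIL and 0.0152% ± 0.00025 in DN47 (SD, n = 2). By 25 DAF this share had reached 0.251% ± 0.124 in cgy-2-NIL and 0.595% ± 0.18 in DN47. It stood at 1.57% ± 0.26 (cgy-2-NIL) and 1.77% ± 0.0627 (DN47) by 35 DAF, and at 1.47% ± 0.0399 and 1.38% ± 0.123, respectively, by 50 DAF. At 55 DAF it was 0.563% ± 0.129 in cgy-2-NIL and 1.13% ± 0.011 in DN47, and the libraries of the lines did not overlap. Counted within the 18 cupin genes alone, the 7 genes took 98.2% ± 0.196 (cgy-2-NIL) and 97% ± 0.35 (DN47) of the counts at 18 DAF, when the conglycinin and glycinin genes were near 0. Different members lay behind these shares: the 3 genes named 7S made up 2.35% to 3.43% of the members' counts per library at 18 DAF, where GLYMA15G04710 held most, and 99.6% to 99.9% at 50 and 55 DAF. By 50 DAF the portion of the 18 cupin genes' counts held by all 7 genes was down to 6.12% ± 1.87 in cgy-2-NIL and 5.11% ± 0.229 in DN47. At 55 DAF this share was 35.6% ± 2.04 in cgy-2-NIL against 13.3% ± 0.936 in DN47. The share of all counts and the share of cupin counts thus pointed in opposite directions at the last stage, with the smaller total and the larger portion in cgy-2-NIL.

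**Figure D2:**
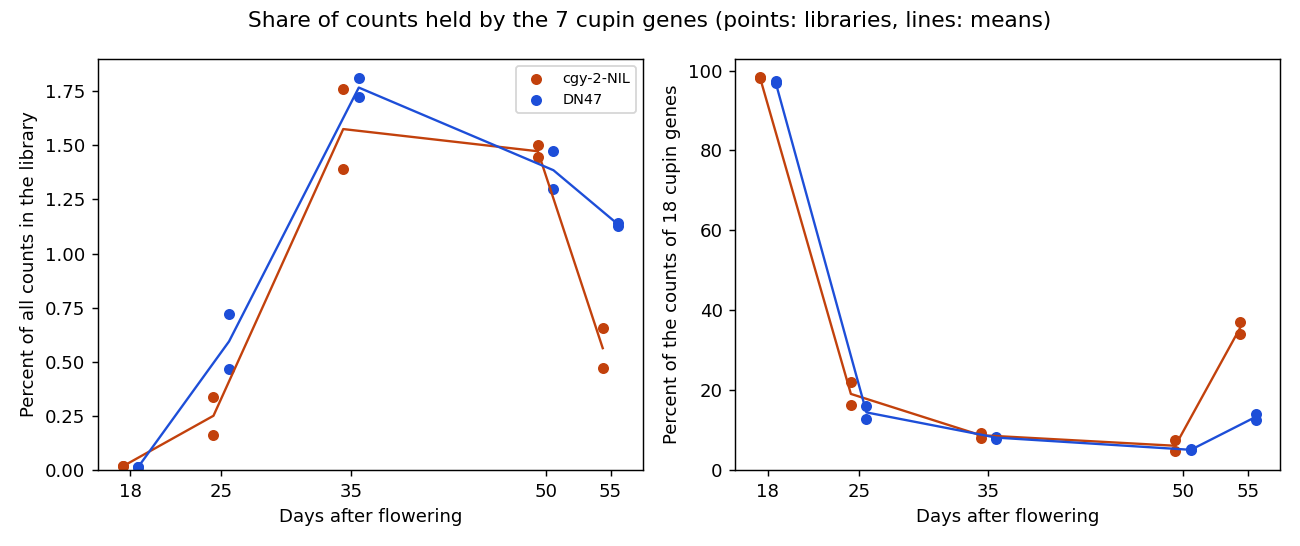
Percent of all counts in a library (left) and percent of the counts of the 18 cupin genes (right) held by the 7 genes, against days after flowering, with 1 point per library and lines through the means. At 55 DAF cgy-2-NIL is lower on the left (0.563% against 1.13%) and higher on the right (35.6% against 13.3%).

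Changes between neighbouring stages were tested within each line with edgeR's quasi-likelihood test on the counts, in 1 fit of all 20 libraries, with p-values adjusted over the 40721 genes that passed the filter on low counts. All 7 members passed it. A gene is said to have risen or fallen where its adjusted p was under 0.05. From 18 to 25 DAF, 5 of 7 members rose in DN47, where 16.3% of all genes tested rose, and 5 rose and 1 fell in cgy-2-NIL, where 20.2% rose and 19% fell. From 25 to 35 DAF, 5 rose in DN47 (all genes: 17%), and all 7 passed the test upwards in cgy-2-NIL (all genes: 20.2%), although for GLYMA15G04710 that direction is not seen in RPKM. From 35 to 50 DAF, 4 fell in DN47 (all genes: 21.3%), and 4 fell and 1 rose in cgy-2-NIL (all genes: 29% and 25.8%). From 50 to 55 DAF, 3 fell in DN47 (all genes: 24.8%) and 5 in cgy-2-NIL (all genes: 33.8%). The fold changes of these tests are scaled between libraries by TMM factors, which in cgy-2-NIL were 1.42 and 1.44 for the libraries of 25 DAF and 1.04 and 0.877 for those of 35 DAF, and RPKM values are not, so the 2 quantities can differ.

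GLYMA10G03390, named 7S, was the most highly expressed of the 7 genes. In DN47 its RPKM was 1.65 and 1.67 (18 DAF), 3101 and 2069 (25 DAF), 6549 and 6121 (35 DAF), 4672 and 4508 (50 DAF), and 3338 and 3298 (55 DAF). In cgy-2-NIL the values were 1.24 and 1.03, 1483 and 709, 5001 and 6239, 4177 and 3907, and 709.6 and 494 at the same stages. The gene was thus near its lowest at 18 DAF, highest at 35 DAF by RPKM in both lines, and kept 52.4% of its peak mean at 55 DAF in DN47 but 10.7% in cgy-2-NIL. It rose from 18 to 25 DAF in DN47 (log2 fold change 10.81, SE 0.51, adjusted p = 4.23e-10) and in cgy-2-NIL (log2 fold change 10.05, SE 0.50, adjusted p = 7.53e-10), and rose again to 35 DAF (log2 fold change 1.95, SE 0.34, adjusted p = 0.000401 in DN47). The lower RPKM at 50 than at 35 DAF did not pass the test in either line (log2 fold change -0.10, SE 0.33, adjusted p = 0.857 in DN47). From 50 to 55 DAF it fell in cgy-2-NIL (log2 fold change -2.77, SE 0.35, adjusted p = 3.29e-06), while the change in DN47 did not pass the threshold (log2 fold change -0.74, SE 0.33, adjusted p = 0.0788), although the DESeq2 Wald test and limma-voom called it lower at 55 DAF.

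GLYMA02G16440, also named 7S, had its highest RPKM at 35 to 50 DAF, below GLYMA10G03390 in every library from 18 to 50 DAF. Its RPKM in DN47 was 0.596 and 0.618, 349 and 171, 1901 and 1944, 1572 and 1142, and 587 and 586 at the 5 stages in order. In cgy-2-NIL it was 0.9 and 0.668, 110.1 and 37.7, 1498 and 1997, 2021 and 1601, and 736 and 556. Both cgy-2-NIL libraries were below both DN47 libraries at 25 DAF and above them at 18 and 50 DAF, and the lines overlapped at 35 and 55 DAF. The mean was highest at 35 DAF in DN47 and at 50 DAF in cgy-2-NIL, but in the latter the libraries of 35 and 50 DAF overlapped. The gene rose from 18 to 25 and from 25 to 35 DAF in both lines and fell from 50 to 55 DAF in both (log2 fold change -1.50, SE 0.44, adjusted p = 0.0112 in DN47 and log2 fold change -1.51, SE 0.44, adjusted p = 0.00739 in cgy-2-NIL). That fall was lost without either of the DN47 libraries of 55 DAF, without replicate 1 of DN47 or of cgy-2-NIL at 50 DAF, or without replicate 2 of cgy-2-NIL at 55 DAF, each in the line concerned.

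GLYMA10G39170, the remaining member named 7S, was the one member with its highest mean at 50 or 55 DAF in both lines. Its RPKM in DN47 was 0.443 and 0.347, 162 and 82.2, 764 and 705, 1247 and 942, and 1799.6 and 1763 from the first stage to the last. In cgy-2-NIL it was 0.236 and 0.489, 68.9 and 25.5, 558 and 717, 1185 and 2089, and 1827 and 1310.1. The mean was highest at 55 DAF in DN47, where the libraries of 50 and 55 DAF did not overlap, and at 50 DAF in cgy-2-NIL, where they did. It rose from 18 to 25 DAF (log2 fold change 8.47, SE 0.66, adjusted p = 3.03e-07 in DN47) and from 25 to 35 DAF (log2 fold change 3.24, SE 0.48, adjusted p = 0.000147), and in cgy-2-NIL also from 35 to 50 DAF (log2 fold change 1.78, SE 0.45, adjusted p = 0.00402), a call that was lost without replicate 2 of cgy-2-NIL at 50 DAF. From 50 to 55 DAF it did not pass the test in DN47 (log2 fold change 0.42, SE 0.44, adjusted p = 0.471) or in cgy-2-NIL (log2 fold change -0.08, SE 0.44, adjusted p = 0.922).

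GLYMA08G13440, named 11S, had its highest RPKM at 35 DAF in both lines, far below GLYMA10G03390. Its RPKM in DN47 was 1.55 and 1.58, 7.53 and 7.19, 42.8 and 43.8, 11.1 and 11.1, and 2.96 and 2.52 at the 5 stages. In cgy-2-NIL it was 1.35 and 1.66, 7.23 and 6.28, 33.5 and 33.5, 16 and 3.33, and 0.59 and 0.736. At 35 DAF both cgy-2-NIL libraries were below both DN47 libraries. Replicates 1 and 2 of cgy-2-NIL stood far apart at 50 DAF, with 1 library above and 1 below both DN47 libraries. The gene rose at both early steps and fell at both late steps in each line, and from 50 to 55 DAF the fall was log2 fold change -2.29, SE 0.52, adjusted p = 0.00343 in DN47 and log2 fold change -3.87, SE 0.63, adjusted p = 0.000162 in cgy-2-NIL. The fall from 35 to 50 DAF (log2 fold change -1.60, SE 0.46, adjusted p = 0.0163 in DN47 and log2 fold change -1.35, SE 0.46, adjusted p = 0.0249 in cgy-2-NIL) was lost in DN47 without replicate 1 at 35 DAF or either library of 50 DAF, and in cgy-2-NIL without either library of 35 DAF.

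GLYMA15G04710, the other gene named 11S, had its highest level at the first stage and its lowest at the last. Its RPKM in DN47 was 103 and 101, 81.8 and 69, 43.4 and 44.2, 19.8 and 19.6, and 7.94 and 7.76 at the 5 stages. In cgy-2-NIL it was 118 and 124, 77.1 and 74.4, 64.7 and 61, 21.9 and 21.3, and 4.23 and 3.73. Both lines thus were highest at 18 DAF, when the sum of the cotyledon list was at its lowest and GLYMA08G06630 of the seed coat list at its highest (the other gene of that list was not), and the part of these genes in the course was not tested. It fell from 35 to 50 DAF (log2 fold change -0.79, SE 0.12, adjusted p = 8.32e-05 in DN47 and log2 fold change -1.09, SE 0.12, adjusted p = 1.27e-06 in cgy-2-NIL) and from 50 to 55 DAF (log2 fold change -1.60, SE 0.13, adjusted p = 1.22e-07 and log2 fold change -2.46, SE 0.13, adjusted p = 2.36e-10). From 18 to 25 DAF it fell in cgy-2-NIL (log2 fold change -0.53, SE 0.11, adjusted p = 0.00166), and in DN47 the change did not pass the test (log2 fold change -0.23, SE 0.11, adjusted p = 0.131). The lower RPKM at 35 than at 25 DAF in DN47 did not pass the edgeR test either (log2 fold change -0.12, adjusted p = 0.448). From 25 to 35 DAF in cgy-2-NIL the RPKM was lower in both later libraries while the scaled fit gave a higher level (log2 fold change 0.32, SE 0.12, adjusted p = 0.0352), and with DESeq2 size factors in the same test it did not pass the threshold (log2 fold change 0.25, adjusted p = 0.1), so no direction is taken from this step.

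GLYMA16G00980, for which no homolog is named, was low throughout and had its highest counts at 35 DAF. In cgy-2-NIL its libraries held 21 and 13 counts (18 DAF), 44 and 65 (25 DAF), 166 and 159 (35 DAF), 3 and 0 (50 DAF), and 0 and 0 (55 DAF). In DN47 the counts were 10 and 6, 33 and 38, 59 and 78, 3 and 3, and 2 and 1. All 8 libraries of 50 and 55 DAF were thus at the detection floor of 3 counts per library, and no fold is given between the lines there. It rose from 18 to 25 DAF and from 25 to 35 DAF in both lines (log2 fold change 1.72, SE 0.32, adjusted p = 0.00068 in DN47 and log2 fold change 2.43, SE 0.29, adjusted p = 1.09e-05 in cgy-2-NIL for the latter step) and fell from 35 to 50 DAF in both (adjusted p = 1.19e-05 and 8.46e-08).

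GLYMA10G39161, the other gene with no named homolog, had the fewest counts. Its gene model is 1014 bases long against 2082 for GLYMA10G39170, and its identifier falls between those of GLYMA10G39170 and of the β-conglycinin gene GLYMA10G39150 on chromosome 10. In cgy-2-NIL it had 2 and 4 counts (18 DAF), 6 and 3 (25 DAF), 54 and 61 (35 DAF), 13 and 25 (50 DAF), and 4 and 0 (55 DAF). The DN47 libraries had 3 and 2, 4 and 13, 12 and 12, 0 and 0, and 2 and 0 counts. By mean RPKM both lines were highest at 35 DAF. It rose from 25 to 35 DAF in cgy-2-NIL (log2 fold change 4.46, SE 0.58, adjusted p = 2.46e-05), and in DN47 that step did not pass the test (log2 fold change 1.27, SE 0.63, adjusted p = 0.137). From 35 to 50 DAF it fell to 0 counts in DN47 (adjusted p = 0.00471), and in cgy-2-NIL it fell as well (log2 fold change -1.21, SE 0.48, adjusted p = 0.0425), a call that held in 10 of the 20 fits without 1 library. From 50 to 55 DAF it fell further in cgy-2-NIL (log2 fold change -3.20, SE 0.78, adjusted p = 0.00203). Reads of near-identical copies could not be followed, since the aligner and the handling of multiply mapped reads are not given in the sources used here, and with counts this low the values of GLYMA10G39161 are uncertain for that reason too.

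The first question of the design, whether the lines differ stage by stage, was answered at 18 DAF by 0 of 7 members, where 1.2% of all genes tested were called. Members with an unadjusted p under 0.05 numbered 0, and DESeq2 and limma-voom called 0. The member closest to a call was GLYMA15G04710, at 118 and 124 RPKM in cgy-2-NIL and 103 and 101 in DN47 (log2 fold change 0.22, SE 0.11, adjusted p = 0.58). Its libraries did not overlap, and it was called when the 4 libraries of the stage were fitted alone. GLYMA10G03390 was at 1.24 and 1.03 RPKM in cgy-2-NIL against 1.65 and 1.67 in DN47 (log2 fold change -0.57, SE 0.41, adjusted p = 0.744).

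At 25 DAF, early in the filling of the cotyledons, 2 of 7 members were lower in cgy-2-NIL, where 2.85% of all genes tested were lower and 8.07% were called in either direction. GLYMA10G03390 was at 1483 and 709 RPKM in cgy-2-NIL and 3101 and 2069 in DN47 (log2 fold change -1.33, SE 0.34, adjusted p = 0.0232). GLYMA02G16440 was at 110.1 and 37.7 against 349 and 171 (log2 fold change -1.91, SE 0.45, adjusted p = 0.0177). For the remaining gene named 7S, GLYMA10G39170, the values of 68.9 and 25.5 against 162 and 82.2 pointed the same way without overlap and missed the threshold (log2 fold change -1.47, SE 0.45, adjusted p = 0.0612). It was called lower in 3 of 11 alternatives (limma-voom, DESeq2, and a replicate block crossed at 18 DAF), with adjusted p from 0.0133 to 0.256 over them all, and in 2 of the 20 fits without 1 library. The other 4 members gave log2 fold changes from -1.26 to 0.21, none of them called.

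The replicates of each line differed by up to 2.92-fold for these 3 genes at 25 DAF. Neither call remained when replicate 2 of cgy-2-NIL or replicate 1 of DN47 at 25 DAF was left out, nor when the 4 libraries of the stage were fitted alone. Of the 5 cotyledon markers, 5 were lower in cgy-2-NIL at this stage, with summed levels of 1643 to 4356 RPKM against 7070.5 to 14564 in DN47, and their part in the member differences was not tested. Among the 11 other cupin genes, 7 were lower and 0 higher, with a median log2 fold change of -2.60, against -1.26 for the 7 members and 0.01 for all genes tested. Gy1 is counted both among the cotyledon markers and among these 11 genes. The 11 genes also include the α-subunit genes GLYMA20G28650 and GLYMA20G28660, whose subunit cgy-2-NIL lacks. Their counts and median are therefore not independent of the genotype in any comparison of the lines.

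At 35 DAF, 3 of 7 members were higher in cgy-2-NIL and 0 lower, where 6.75% of all genes tested were higher and 14.7% were called in either direction. They were both genes without a named homolog and the 11S gene that is highest at 18 DAF, and no gene named 7S was among them. GLYMA10G39161 was at 2.43 and 2.49 RPKM in cgy-2-NIL against 0.575 and 0.579 in DN47 (log2 fold change 1.93, SE 0.51, adjusted p = 0.02). GLYMA16G00980 was at 6.23 and 5.42 against 2.36 and 3.14 (log2 fold change 0.92, SE 0.28, adjusted p = 0.04), and GLYMA15G04710 was at 64.7 and 61 against 43.4 and 44.2 (log2 fold change 0.36, SE 0.12, adjusted p = 0.0472). In each case both cgy-2-NIL libraries lay above both DN47 libraries, which the call itself favours and which adds no support to it.

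The 35 DAF calls were near the threshold. None of the 3 remained when any 1 of the 4 libraries of that stage was left out, and 1 remained without either DN47 library of 18 DAF. Over all 20 fits that left out 1 library, the call held in 16 for GLYMA10G39161, 12 for GLYMA16G00980, and 8 for GLYMA15G04710. GLYMA08G13440, at 33.5 and 33.5 RPKM in cgy-2-NIL against 42.8 and 43.8 in DN47, did not pass the test (log2 fold change -0.53, adjusted p = 0.465), and it was called lower when the 4 libraries of the stage were fitted alone (adjusted p = 0.0125) and without either cgy-2-NIL library of 50 DAF. For the genes named 7S the lines overlapped, with GLYMA10G03390 at 5001 and 6239 RPKM against 6549 and 6121 (log2 fold change -0.32, SE 0.33, adjusted p = 0.568). Of the 11 other cupin genes 2 were lower and 0 higher at this stage, where 3238 of the 40721 genes tested were lower. The lower ones were conglycinin subunit genes. The α-subunit genes GLYMA20G28650 and GLYMA20G28660 had means of 6.16 and 0.139 RPKM in cgy-2-NIL against 90.3 and 91.3 in DN47.

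At 50 DAF, 1 of 7 members was higher in cgy-2-NIL, where 8.54% of all genes tested were higher and 16.4% were called in either direction. GLYMA10G39161 had 13 and 25 counts in the cgy-2-NIL libraries and 0 and 0 in the DN47 libraries. Against a floor of 3 counts per library this is at least 4.6-fold higher in cgy-2-NIL (adjusted p = 0.00386, edgeR), and the call was lost when the 4 libraries of the stage were fitted alone. The genes named 7S gave log2 fold changes of -0.26 for GLYMA10G03390, 0.33 for GLYMA02G16440, and 0.48 for GLYMA10G39170, none of them called. Leaving out replicate 1 of cgy-2-NIL at 50 DAF left 1 library in that group and raised the calls over all genes as well as among the members. The members added were GLYMA08G13440 and GLYMA16G00980, both lower, the latter with at most 3 counts in each library. For GLYMA08G13440 the difference ran from -1.83 to 0.48 depending on which library was left out.

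At 55 DAF, the latest stage, 3 of 7 members were lower in cgy-2-NIL and 0 higher, where 24.4% of all genes tested were lower and 46.1% were called in either direction. GLYMA10G03390 was at 709.6 and 494 RPKM in cgy-2-NIL and 3338 and 3298 in DN47, 4.91-fold lower in the fit (log2 fold change -2.30, SE 0.35, adjusted p = 4.54e-05). GLYMA15G04710 was at 4.23 and 3.73 against 7.94 and 7.76 (log2 fold change -0.81, SE 0.14, adjusted p = 0.000122), and GLYMA08G13440 at 0.59 and 0.736 against 2.96 and 2.52 (log2 fold change -1.87, SE 0.70, adjusted p = 0.0453). Both libraries of cgy-2-NIL lay below both of DN47 for each of these genes, which again adds no support to the calls.

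The other 2 genes named 7S did not follow GLYMA10G03390. GLYMA02G16440 was at 736 and 556 RPKM in cgy-2-NIL and 587 and 586 in DN47 (log2 fold change 0.31, SE 0.43, adjusted p = 0.615), and GLYMA10G39170 was at 1827 and 1310.1 against 1799.6 and 1763 (log2 fold change -0.02, SE 0.44, adjusted p = 1). In both genes the libraries of the lines overlapped, and neither was called in any alternative or in any of the 20 fits without 1 library. For GLYMA10G03390 and GLYMA15G04710 the call held in all 20 of those fits and all alternatives that tested the stage, whereas for GLYMA08G13440 it held in 2 of the 20 and was lost with DESeq2 size factors, with limma-voom, and without the filter on low counts.

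Of the 11 other cupin genes, 10 were lower at 55 DAF, with 5 of 5 conglycinin genes and 5 of 6 glycinin genes. Their median log2 fold change was -3.02, against -0.81 for the 7 members and -0.02 for all genes tested. Of the 5 cotyledon markers, 5 were lower in cgy-2-NIL, with summed levels of 4489 to 5643 RPKM against 26982 to 30527 in DN47. Gy1 alone had means of 1809 RPKM in cgy-2-NIL and 16499 in DN47. It is also 1 of the 11 other cupin genes, so the 2 counts overlap. The α-subunit genes, whose subunit cgy-2-NIL lacks, are among the 11 as well. Of the 2 seed coat markers, GLYMA09G02600 was lower (2.62 and 4.5 against 37.6 and 33.6 RPKM), as it had also been at 25, 35, and 50 DAF (log2 fold changes of -1.08, -0.93, and -2.88), with a difference of -0.66 at 18 DAF that was not called. By its own test the study lists this gene as lower in cgy-2-NIL at 18 DAF too. GLYMA08G06630 was at 1 and 0 counts in cgy-2-NIL and 2 and 0 in DN47. The part of these markers in the member differences was not tested.

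**Figure D3:**
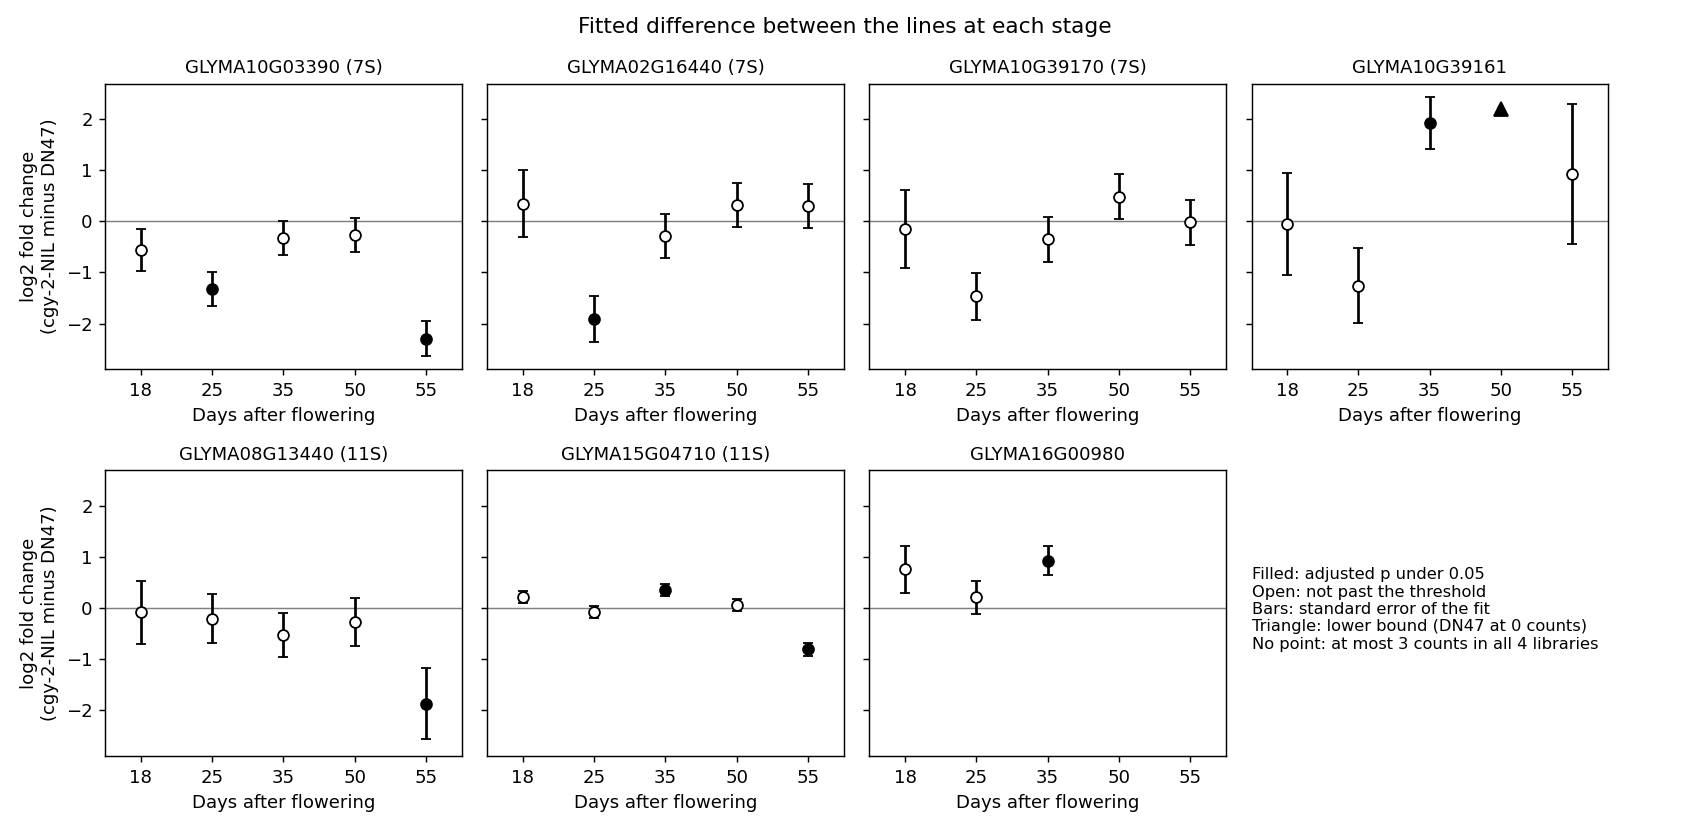
Fitted log2 fold change of cgy-2-NIL minus DN47 at each stage for each of the 7 genes, with bars of 1 standard error, filled points for an adjusted p under 0.05, a triangle for a lower bound against 0 counts, and no point where all 4 libraries had at most 3 counts. The filled points lie below 0 at 25 DAF for GLYMA10G03390 and GLYMA02G16440 and at 55 DAF for GLYMA10G03390, GLYMA08G13440, and GLYMA15G04710, and above 0 at 35 DAF for GLYMA10G39161, GLYMA15G04710, and GLYMA16G00980.

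Whether the difference between the lines itself changed with the stage was tested by the 4 interaction terms together. It passed for 4 of 7 members, where 44.5% of all genes tested passed. These were GLYMA15G04710 (adjusted p = 0.00073), GLYMA10G39161 (adjusted p = 0.00832), GLYMA10G03390 (adjusted p = 0.0093), and GLYMA02G16440 (adjusted p = 0.0335). GLYMA15G04710 was higher in cgy-2-NIL at 35 DAF and lower at 55 DAF, so its difference changed sign between called stages. GLYMA16G00980 (adjusted p = 0.0763), GLYMA10G39170 (0.138), and GLYMA08G13440 (0.447) did not pass. Without 55 DAF only GLYMA10G39161 passed, with adjusted p = 0.214 for GLYMA15G04710, 0.276 for GLYMA10G03390, and 0.1 for GLYMA02G16440. Without either cgy-2-NIL library of 50 DAF, where its replicates stood far apart, GLYMA08G13440 passed. For GLYMA02G16440 the call held in 6 of the 20 fits without 1 library, with the largest adjusted p (0.188) without replicate 1 of DN47 at 25 DAF, and was lost with limma-voom and without the filter on low counts, and for GLYMA10G03390 it was lost with limma-voom.

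A single difference across all stages, from a model of line and stage without interaction, passed for GLYMA10G03390 alone (log2 fold change -0.96, SE 0.25, adjusted p = 0.0188), where 13.5% of all genes tested passed and 5.9% were lower. Without 55 DAF it did not pass. For the other members this fit gave log2 fold changes from -0.53 to 1.24. Of the 11 other cupin genes, 7 were lower and 1 higher by the same fit.

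Ratios within a library need no scaling between libraries, and they set the genes named 7S against each other. The RPKM ratio of GLYMA10G03390 to GLYMA02G16440 was 13.5 and 18.8 in cgy-2-NIL and 8.89 and 12.1 in DN47 at 25 DAF. By 35 DAF it had narrowed to 3.34 and 3.12 against 3.45 and 3.15, and by 50 DAF it was 2.07 and 2.44 against 2.97 and 3.95. At 55 DAF it was 0.965 and 0.889 in cgy-2-NIL against 5.69 and 5.63 in DN47, a log2 difference of -2.61, while at 25 DAF the log2 difference was 0.62. The lines did not overlap at 25, 50, or 55 DAF, and the direction at 25 DAF was opposite to that at the later stages. Nor did they overlap at 18 DAF (log2 difference -0.90), where the levels of these genes were low. The mean log2 difference over 25 to 55 DAF was -0.66 (two-sided exact permutation test of the line labels within stages, 16 libraries, p = 0.164, adjusted over the 2 ratios p = 0.164, where the smallest p possible is 0.00154).

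GLYMA10G39170 was also set against GLYMA10G39150, the α'-subunit gene of β-conglycinin, whose identifier is close to its own. Their mean log2 RPKM ratio was larger at each later stage from 25 DAF on, with RPKM ratios running from 0.0138 and 0.014 in cgy-2-NIL and 0.0168 and 0.0137 in DN47 at 25 DAF to 1.15 and 1.34 and 0.353 and 0.377 at 55 DAF. The libraries of the lines overlapped at 25 and 50 DAF and stood apart at 35 DAF (log2 difference -0.26) and at 55 DAF (log2 difference 1.77). Over 25 to 55 DAF the mean log2 difference was 0.50 (exact permutation test, two-sided, p = 0.159, adjusted p = 0.164). Neither ratio passed the test over 25 to 55 DAF.

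**Figure D4:**
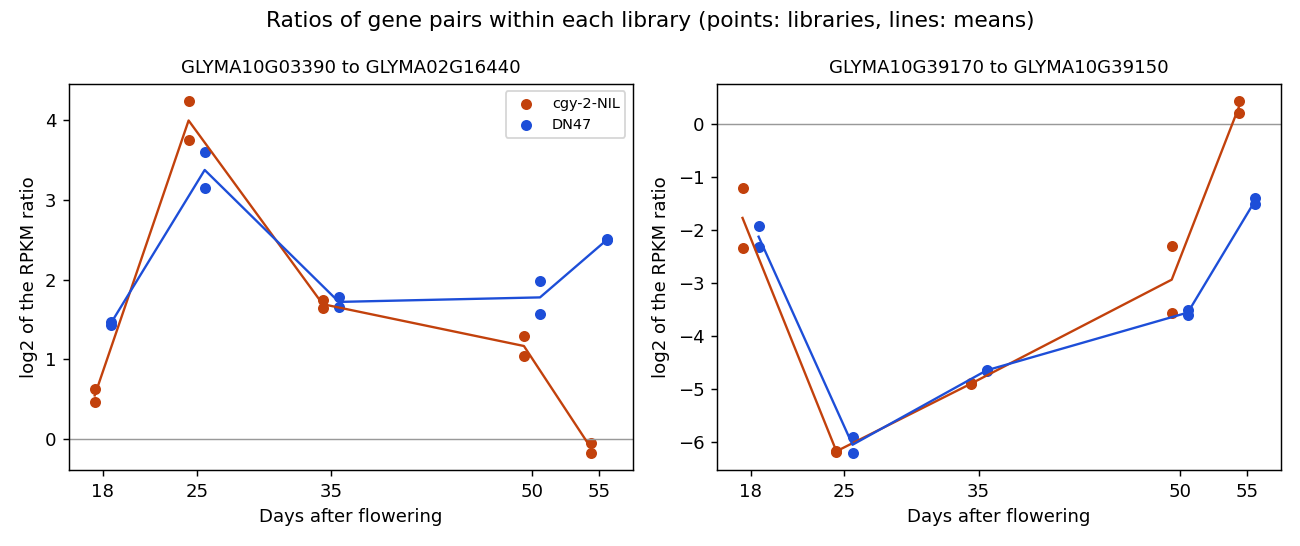
log2 of the RPKM ratio of GLYMA10G03390 to GLYMA02G16440 (left) and of GLYMA10G39170 to GLYMA10G39150 (right) against days after flowering, with 1 point per library and lines through the means of cgy-2-NIL and DN47. The lines part most at 55 DAF, with a log2 difference of -2.61 on the left and 1.77 on the right.

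The likeness of the courses was described by Pearson's r of log2(RPKM + 1) over the 10 group means, against 17254 genes with a group mean of at least 10 RPKM, which is a description over points that share libraries and stages. The genes most like GLYMA10G03390 were GLYMA19G13060, GLYMA08G12270, and the α'-subunit gene GLYMA10G39150 (r = 0.998 for each). Those most like GLYMA02G16440 were GLYMA01G10900, GLYMA06G12890, and GLYMA13G29550 (r from 0.99 to 0.993), and those most like GLYMA10G39170 were GLYMA11G15870, GLYMA01G38340, and GLYMA11G07020 (r from 0.997 to 0.999). Between members, r was 0.96 for GLYMA10G03390 and GLYMA02G16440, 0.97 for GLYMA02G16440 and GLYMA10G39170, 0.91 for GLYMA10G03390 and GLYMA10G39170, and -0.76 for GLYMA10G39170 and GLYMA15G04710. GLYMA10G03390 reached 0.99 with the glycinin gene Gy1 (GLYMA03G32030).

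For the 11S genes, GLYMA08G13440 was most like GLYMA19G33951 (r = 0.981) and GLYMA15G04710 most like GLYMA12G05821 (r = 0.996), and r between these members was 0.23. GLYMA16G00980 was most like GLYMA06G42460 (r = 0.972) and GLYMA10G39161 most like GLYMA10G42461 (r = 0.897). At 55 DAF in cgy-2-NIL and DN47, GLYMA06G42460 still had means of 101 and 87.1 RPKM and GLYMA10G42461 of 117 and 133. These members were then at or near 0, so the likeness does not extend to their late levels. Only 1 of the 21 places was taken by another cupin gene, GLYMA10G39150 for GLYMA10G03390. With Spearman's rho in place of r only 2 of the 21 genes were named again, so the names depend on the measure.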

How the data were processed

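RNA was sequenced from developing seeds of cgy-2-NIL and DN47 at 5 ages, and the 20 libraries were placed in 10 groups by their labels, with 0 value columns unplaced. The authors obtained counts of reads per gene with HTSeq on an Ensembl Plants annotation and deposited them unnormalized. RPKM values, also deposited, were derived by the authors from those counts by gene length and library total, so they are not scaled further. Neither the read aligner nor the strandedness of counting is given in the sources used here, and overlapping or near-identical genes may therefore share reads. Because 0 of 59048 reference genes bore an identifier of the tables, no names, coordinates, or sequences were added.

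Genes were filtered with filterByExpr and scaled by TMM, and the robust quasi-likelihood F test of edgeR 4.0.16 (R 4.3.3) was applied with 1 mean per group and 10 residual degrees of freedom. Benjamini-Hochberg adjustment was over 40721 genes at a threshold of 0.05. Fold changes are cgy-2-NIL over DN47, or later over earlier stage. A group with at most 3 counts in each library was taken as at the floor, which covers counting error only. P-values rest on the spread between the 2 seed pools of a group, estimated for each gene over all 10 groups together. They do not measure the spread at 1 stage alone. Where libraries are said not to overlap, this is a description of 2 against 2 libraries. The share of all genes without overlap was not counted. Named are all 7 members, the 11 other cupin genes by counts, the marker genes, and for each member the 3 genes with the highest r. Members and lists were chosen with earlier results of these data known.

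On simulated counts for 40251 genes, the fit called 183 of 200 genes changed 4-fold at 55 DAF and 176 of 200 in the interaction test, with 8 unchanged genes called in each. The changed genes were drawn from those with higher mean counts than GLYMA10G39161 and GLYMA16G00980, so these members are not covered. The simulation also used the same spread at every stage and far fewer changed genes than the 46.1% called at 55 DAF. It therefore does not give the error rates of the real fit. Alternatives were other scalings (DESeq2 size factors, upper-quartile, TMM leaving out cupin genes), other tests (DESeq2 1.42.0, limma-voom in limma 3.58.1), other filters, the replicate block, stage-wise fits of 4 libraries, and omission of 55 DAF or of 1 library. Ratios and plots used numpy 2.4.6, scipy 1.17.1, pandas 2.3.3, and matplotlib 3.10.9 under Python 3.11.15.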

Additional observations from a re-analysis of the deposited data

Results flagged for a closer look

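For 4 of the 7 genes the difference between cgy-2-NIL and DN47 was not the same at all stages by the test of the difference itself (edgeR, 4 interaction terms together, adjusted over 40721 genes). Of all genes tested 44.5% passed, so the count of 4 is near the background and is no result about the members. GLYMA10G03390 had an adjusted p of 0.0093, with stage values from -2.30 at 55 DAF to -0.26 at 50 DAF on the log2 scale, and did not pass with limma-voom (adjusted p = 0.113). GLYMA02G16440 had an adjusted p of 0.0335, with -1.91 at 25 DAF and 0.33 at 50 DAF, and passed in 6 of the 20 fits without 1 library and not with limma-voom (adjusted p = 0.495) or without the filter on low counts (adjusted p = 0.0738). GLYMA10G39161 had an adjusted p of 0.00832 and rests on at most 61 counts per library. GLYMA15G04710 had an adjusted p of 0.00073, with 0.36 at 35 DAF and -0.81 at 55 DAF.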

How the results depend on the processing

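No called line difference at a stage reversed. Changes between stages, the interaction, and the difference across stages were compared by their calls and not by direction. Fitted to the 4 libraries of a stage alone, 1 member was called at 18 DAF, 0 at 25 DAF, 4 at 35 DAF (GLYMA08G13440 in addition, lower), and 0 at 50 DAF. Over all genes these fits called 4739 of 38135, 3602 of 36353, 6705 of 33862, and 73 of 31475, in the same order. Under a stricter filter (10 counts or more in all libraries) 1 was called at 35 DAF and 0 at 50 DAF, and 2 changed from 35 to 50 DAF in DN47, 4 from 25 to 35 DAF and 3 from 35 to 50 DAF in cgy-2-NIL. Of the 24450 genes tested it called 5598, 5934, 10448, 11004, and 14310, in the same order. This filter left 5 members tested, and GLYMA15G04710, still tested, lost its call from 25 to 35 DAF in cgy-2-NIL (adjusted p = 0.0968). Without 55 DAF, 1 passed the interaction test and 0 the test across stages, where 6634 and 3139 of 39985 genes passed. Leaving out 1 library changed the number of members called at 25, 35, and 50 DAF, from 35 to 50 DAF in cgy-2-NIL, and across stages. Each of these fits leaves 1 library in a group, and the calls over all genes changed as well. The size of these changes is therefore not read as a result about the members. Of the 21 most similar genes, 12 recurred with a pseudocount of 0.1, 13 with a minimum of 1 RPKM, and 2 with Spearman's rho. Over all 5 stages the ratio of GLYMA10G03390 to GLYMA02G16440 gave -0.71 (exact permutation p = 0.043), with 18 DAF values that rest on low counts. Where no cause is named, the cause was not tested. Same-numbered libraries did not deviate together (correlations from -0.23 to 0.09 by stage), and the replicate block left every count of members unchanged, with 3 at 55 DAF. Crossed at 18 DAF, a pairing chosen after seeing the data, the block called 0 members there. Upper-quartile factors moved the median of all genes to -0.13 at 55 DAF and to -0.25 from 50 to 55 DAF in cgy-2-NIL, against -0.02 and -0.08. The 2 libraries per group and a spread shared over unequal stages limit these calls: over all genes the 4 libraries alone called 4739 genes at 18 DAF and 73 at 50 DAF, against 487 and 6694.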
